A study of Mus musculus with 16 samples.

Results

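Genes of the endothelial cells that line blood and lymph vessels were followed through 16 mouse small cell lung cancers. The set held 33 genes for endothelial receptors, junction proteins, transcription factors and secreted proteins, picked by symbol from the 23224 gene rows of the estimated count table, and all 33 had a row. The 8 p107 tumors carried CRISPR-mediated mutations in p107 (gene Rbl1), and the 8 p130 tumors carried them in p130 (gene Rbl2). Every tumor in both groups also lacked Trp53 and Rb1 (Trp53-/-; Rb1-/-), and the mice were of mixed C57BL/6;129/Sv strain, with ages not given in the sources used here. Whole tumors were cut from the lungs and frozen, and mRNA libraries were made from their total RNA. No tumor without a p107 or p130 mutation was analysed here, so a difference between the groups does not say which of them departed from the Trp53 and Rb1 double mutant. The labels do not say which cells of the lung carried the mutations. The endothelial cells measured here were those of the tumor's vessels and of any lung tissue cut out with it.

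Vessels grow toward VEGF ligands, which bind receptor tyrosine kinases on endothelial cells, while angiopoietins act through the TIE receptors to settle the new vessel. Junction proteins such as VE-cadherin then hold the cells to each other, and transcription factors of the ETS and SOX families keep the endothelial program on. Small cell lung cancer is a neuroendocrine carcinoma, so its tumor cells are not themselves endothelial. In whole tumor RNA these genes are commonly read as genes of the host vessels, although other cells can express some of them. In such bulk tissue, fewer endothelial cells and less RNA per cell cannot be told apart.

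The promoters of 6 of the genes are shown because the genes stand at different places in the pattern described further on. Those of Tie1, Emcn and Eng belong to genes that varied together over the tumors, that of Kdr to the main VEGF receptor, which followed them less closely, and those of Clec14a and Apln to genes that went their own way. Each is the stretch of 250 bases before the RefSeq start of the gene in GRCm38.p6, written along the gene. Capitals mark matches to the ETS motif forms CAGGAA or CCGGAA on either strand. The places are chr4:118489850-118490099 (minus strand) for Tie1, chr3:137340828-137341077 (plus strand) for Emcn, chr2:32646345-32646594 (plus strand) for Eng, chr5:75978456-75978705 (minus strand) for Kdr, chr12:58269259-58269508 (minus strand) for Clec14a and chrX:48034854-48035103 (minus strand) for Apln.
Tie1: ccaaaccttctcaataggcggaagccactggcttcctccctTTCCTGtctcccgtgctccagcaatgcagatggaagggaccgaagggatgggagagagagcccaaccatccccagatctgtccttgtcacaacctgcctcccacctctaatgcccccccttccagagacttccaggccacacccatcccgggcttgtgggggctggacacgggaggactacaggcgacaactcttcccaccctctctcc
Emcn: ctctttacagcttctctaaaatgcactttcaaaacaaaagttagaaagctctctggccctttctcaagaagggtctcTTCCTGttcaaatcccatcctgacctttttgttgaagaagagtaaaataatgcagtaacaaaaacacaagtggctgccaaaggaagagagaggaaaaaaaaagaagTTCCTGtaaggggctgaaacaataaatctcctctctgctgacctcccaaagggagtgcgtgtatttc
Eng: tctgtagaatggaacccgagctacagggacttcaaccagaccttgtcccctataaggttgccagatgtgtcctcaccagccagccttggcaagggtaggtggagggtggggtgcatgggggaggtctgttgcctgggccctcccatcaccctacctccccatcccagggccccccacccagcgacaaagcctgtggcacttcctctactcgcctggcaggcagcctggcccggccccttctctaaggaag
Kdr: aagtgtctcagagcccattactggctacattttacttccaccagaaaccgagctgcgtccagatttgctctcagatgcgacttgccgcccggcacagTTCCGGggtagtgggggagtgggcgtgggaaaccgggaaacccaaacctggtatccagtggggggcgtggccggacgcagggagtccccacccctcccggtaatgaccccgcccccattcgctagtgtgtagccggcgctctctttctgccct
Clec14a: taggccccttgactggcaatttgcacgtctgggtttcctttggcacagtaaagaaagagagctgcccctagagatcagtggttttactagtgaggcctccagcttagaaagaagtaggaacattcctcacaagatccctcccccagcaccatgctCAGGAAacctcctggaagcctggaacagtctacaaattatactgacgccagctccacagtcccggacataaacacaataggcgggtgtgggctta
Apln: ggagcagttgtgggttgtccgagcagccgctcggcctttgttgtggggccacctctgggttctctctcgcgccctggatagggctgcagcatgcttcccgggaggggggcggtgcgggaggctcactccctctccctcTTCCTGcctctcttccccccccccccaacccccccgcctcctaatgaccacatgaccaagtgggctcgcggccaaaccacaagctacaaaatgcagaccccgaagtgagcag

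Of the 33 genes, 16 had an entry in the promoter table, and 10 of those 16 (62.5%) held CAGGAA or CCGGAA in this window, against 9432 of 27025 promoters of all genes (34.9%). The Emcn promoter held 2 matches, those of Tie1, Kdr, Clec14a and Apln held 1 each, and that of Eng held 0. Only these forms were searched, and the Eng promoter does hold GGAA, the bases common to both, with other flanking bases. A GATA core (AGATAA) was found in 1 of the 16 (6.25%), against 10.3% of all promoters. A SOX core (ACAAAG or ACAATG) was found in 3 of the 16 (18.8%), against 25.5% of all promoters. The ETS match was thus present both in genes that varied together and in genes that did not, and a match is only a run of letters, not a bound site.

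The labelled tissue was checked first. The neuroendocrine granule protein Chga lay at 290.5 to 645 CPM (estimated counts divided by the TMM-adjusted library size) in p107 tumors and at 269 to 1748 CPM in p130 tumors. Of the mutated genes, Rbl1 lay at 64.3 to 247 CPM in p107 tumors and 60.6 to 121 CPM in p130 tumors, and Rbl2 at 55.4 to 128 CPM in p107 tumors and 15.6 to 54.4 CPM in p130 tumors. Rbl2 was thus lower in every p130 tumor than in any p107 tumor, whereas Rbl1 overlapped, and mRNA of a gene mutated by CRISPR need not be lost. The p107 tumors held 13300223 to 34620979 estimated counts each and came from 4 mice, and the p130 tumors held 12700334 to 21254514 and came from 3 mice, the number in a tumor's title being read as its mouse. The Y-linked gene Kdm5d exceeded Xist, the RNA of the inactive X chromosome, in all 8 p107 tumors and in 2 p130 tumors, both of mouse sgp130_6697, so sex and genotype cannot be told apart in the other 6 p130 tumors. Red blood cell genes, which mark blood in the sample, summed to 8.86 to 584 CPM in p107 tumors and 4.98 to 52.9 CPM in p130 tumors.

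All 33 genes passed the filter on low counts, and 31 of them had at least 10 estimated counts in every tumor. The exceptions were Tal1, with a lowest count of 5, and Aplnr, with a lowest count of 1. Set per kilobase of transcript, so that genes can be compared, the highest level belonged to Vwf, von Willebrand factor, at 51.0 CPM per kb over the 16 tumors. Clec14a followed at 39.4, Plvap at 14.7, Pecam1 at 12.1 and S1pr1 at 12.01 CPM per kb. The lowest were Sox17 at 0.651, Aplnr at 0.357 and Tal1 at 0.215 CPM per kb. Vwf is also stored in platelets and Lyve1 also marks some macrophages, so neither is confined to endothelium. Platelet markers were detected. Gp1bb had 4.40 to 27.7 CPM in p107 tumors and 5.03 to 19.3 CPM in p130 tumors, while the highest value in any tumor was 8.12 CPM for Pf4, 5.59 for Clec1b, 5.23 for Gp1ba, 1.86 for Itga2b and 0.111 for Gp9.

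Between p107 and p130 tumors, no endothelial gene passed edgeR's quasi-likelihood test at an adjusted p of 0.05, over the 14857 genes tested. Over all genes 4 passed (0.0269%), and the adjusted p of the 33 genes ran from 0.222 to 0.998. Without adjustment, 12 of the 33 (36.4%) had p under 0.05, 11 of them higher in p107 tumors and 1 lower, beside 1756 of all genes (11.8%), of which 922 (6.21% of those tested) were higher in p107 tumors. The fitted level was higher in p107 tumors for 25 of the 33 genes (75.8%), beside 50% of all genes. The median log2 fold change (p107 over p130) of the 33 was 0.40, a 1.32-fold difference, beside a median of 4.15e-05 over all genes. DESeq2 called 335 of 17399 genes (1.93%), and among them 1 endothelial gene, Cdh5, at an adjusted p of 0.0493. In none of the 33 did the groups stand clear of each other, as they did in 21 of all genes (0.141%). Without p107 tumor sgp107_6627T1 the median log2 fold change was 0.29, and among the 10 tumors with Kdm5d above Xist it was 0.70, with 28 genes higher in p107 tumors.

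**Figure D1:**
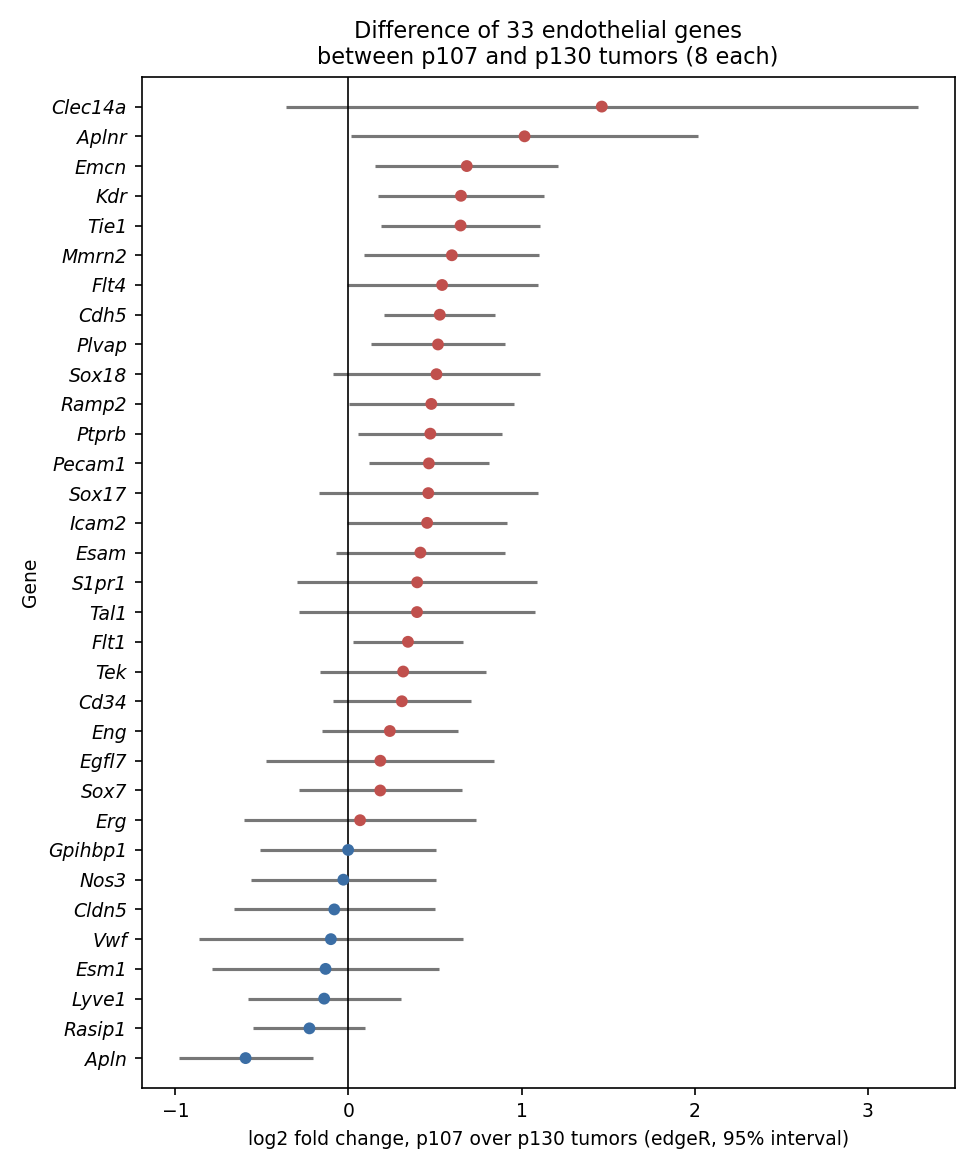
Log2 fold change of each of the 33 endothelial genes, p107 over p130 tumors (8 each), with the 95% interval of the edgeR fit as a line. Of the 33 points, 25 lie right of 0 and 8 left of it, most of the intervals cross 0, and Clec14a has the widest interval.

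Means below are given ± SD over the 8 tumors of a group (n = 8 each). The receptors for VEGF all had the higher fitted level in p107 tumors. Kdr, the main signalling receptor for VEGF-A, had a lowest, median and highest level of 16.7, 19.6 and 36.3 CPM in p107 tumors, against 6.73, 16.1 and 20.5 CPM in p130 tumors. Only 2 p107 tumors, sgp107_6630T2 and sgp107_6631T2, lay above 30 CPM, and the other 6, at 16.7 to 21.7 CPM, lay near the upper p130 tumors. The mean was 22.9 ± 6.78 CPM in p107 tumors, against 14.6 ± 4.84 CPM in p130 tumors, and the log2 fold change was 0.65 ± 0.23 (SE, edgeR adjusted p = 0.284). Flt1, which binds VEGF-A, VEGF-B and placental growth factor, averaged 26.9 ± 3.43 CPM in p107 tumors and 21.2 ± 5.44 CPM in p130 tumors. Flt4, the receptor for VEGF-C and VEGF-D and a gene of lymphatic endothelium, averaged 13.6 ± 5.26 CPM in p107 tumors and 9.32 ± 3.13 CPM in p130 tumors. Kdr and Flt4 followed each other over the 16 tumors (Pearson r = 0.77, 0.78 within mice).

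The TIE group is made of the angiopoietin receptor Tek, its partner receptor Tie1 and the phosphatase Ptprb, which removes phosphate from Tek. Tie1 had a lowest, median and highest level of 8.04, 11.8 and 21.6 CPM in p107 tumors, against 4.28, 7.78 and 12.8 CPM in p130 tumors. Of the p107 tumors, 6 lay close together between 10.95 and 12.6 CPM, another was lower, and sgp107_6627T1 alone gave the highest value. The log2 fold change of Tie1 was 0.65 ± 0.22 (SE, edgeR adjusted p = 0.275). Ptprb averaged 70.4 ± 23.0 CPM in p107 tumors and 50.7 ± 11.5 CPM in p130 tumors. Tek averaged 12.4 ± 2.73 CPM in p107 tumors and 9.92 ± 3.69 CPM in p130 tumors, with its highest value of all, 17.4 CPM, in a p130 tumor. Tek and Ptprb went together (r = 0.79), while Tie1 went with the junction gene Cdh5 (r = 0.90).

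Of the 5 junction genes, 4 had the higher fitted level in p107 tumors. Cdh5, which encodes VE-cadherin, the adhesion protein of endothelial junctions, had a lowest, median and highest level of 29.9, 38.0 and 59.7 CPM in p107 tumors, against 18.0, 27.5 and 34.9 CPM in p130 tumors. Only 1 p130 tumor, sgp130_6637T1, lay above the lowest p107 tumor. The mean was 39.2 ± 9.24 CPM in p107 tumors, against 27.2 ± 4.85 CPM in p130 tumors, and the log2 fold change of 0.53 ± 0.15 (SE) had the lowest edgeR adjusted p of the 33 genes, 0.222. Pecam1, an adhesion molecule of platelets, leukocytes and endothelium, had 33.3, 47.5 and 74.2 CPM as its lowest, median and highest level in p107 tumors, against 22.1, 36.4 and 41.1 CPM in p130 tumors. For Pecam1, 3 p107 tumors stayed within the p130 range, and the log2 fold change was 0.46 ± 0.17 (SE, edgeR adjusted p = 0.288). Cdh5 and Pecam1 were the most alike pair among all 528 (r = 0.94, Spearman rho = 0.87, 0.95 within mice).

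The other junction genes had smaller fitted differences. Esam, a junctional adhesion molecule, averaged 12.5 ± 3.81 CPM in p107 tumors and 9.34 ± 3.47 CPM in p130 tumors. Icam2, a ligand for leukocyte integrins, averaged 3.04 ± 0.69 CPM in p107 tumors and 2.22 ± 0.55 CPM in p130 tumors. Cldn5, the claudin of endothelial tight junctions, averaged 4.30 ± 2.12 CPM in p107 tumors and 4.55 ± 1.13 CPM in p130 tumors, with sgp107_6627T1 at 8.91 CPM above all others. Its log2 fold change of -0.08 was 0.15 without p130 mouse sgp130_6637.

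Of the 7 surface and matrix genes, 6 had the higher fitted level in p107 tumors. Emcn, a sialomucin of capillaries and veins, had a lowest, median and highest level of 7.27, 9.49 and 13.6 CPM in p107 tumors, against 2.56, 6.08 and 10.9 CPM in p130 tumors. Just 2 p130 tumors lay above the lowest p107 tumor, and the log2 fold change was 0.68 ± 0.25 (SE, edgeR adjusted p = 0.298). Plvap, which forms the diaphragms of caveolae and fenestrae, averaged 34.3 ± 8.44 CPM in p107 tumors and 23.98 ± 6.83 CPM in p130 tumors (log2 fold change 0.52, SE 0.18, edgeR adjusted p = 0.288). Eng, a coreceptor for BMP ligands, averaged 17.0 ± 3.94 CPM in p107 tumors and 14.4 ± 3.73 CPM in p130 tumors. Cd34, a sialomucin also found on blood stem cells, averaged 26.7 ± 3.10 CPM in p107 tumors and 21.6 ± 8.23 CPM in p130 tumors. Gpihbp1, which holds lipoprotein lipase on capillaries, averaged 16.5 ± 3.68 CPM in p107 tumors and 16.5 ± 7.60 CPM in p130 tumors, and its fold change had no stable sign.

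Clec14a, a lectin-like surface protein, and its matrix partner Mmrn2 did not behave alike. Clec14a had a lowest, median and highest level of 13.5, 57.7 and 759 CPM in p107 tumors, against 12.2, 75.3 and 229 CPM in p130 tumors, a 62.0-fold range over the 16. The high values were those of sgp107_6631T1 with 759 CPM, sgp107_6630T3 with 666 CPM and sgp107_6631T2 with 502 CPM, while the other 5 p107 tumors lay at or under 66.9 CPM. The median was thus lower in p107 tumors although the mean was higher, at 264 ± 321 CPM in p107 tumors, against 95.8 ± 82.9 CPM in p130 tumors. The fitted log2 fold change was 1.46 ± 0.86 (SE, edgeR adjusted p = 0.530), and it was 0.57 without mouse sgp107_6631. Mmrn2 varied 4.01-fold over the 16 tumors and averaged 5.79 ± 1.18 CPM in p107 tumors and 3.83 ± 1.33 CPM in p130 tumors.

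The 5 transcription factor genes all had a fitted log2 fold change above 0, from 0.07 to 0.51, none with an edgeR adjusted p under 0.503. Sox18, a SoxF factor of vessel and lymphatic formation, had a lowest, median and highest level of 2.19, 3.38 and 8.21 CPM in p107 tumors, against 1.73, 2.74 and 4.34 CPM in p130 tumors. The other SoxF factors were lower per length, with 0.651 CPM per kb for Sox17 and 0.741 for Sox7, against 2.08 for Sox18. Sox17 averaged 2.45 ± 0.92 CPM in p107 tumors and 1.78 ± 0.68 CPM in p130 tumors, and Sox7 averaged 2.60 ± 0.35 CPM in p107 tumors and 2.29 ± 0.72 CPM in p130 tumors. Tal1, a factor of blood and endothelial precursors, averaged 1.03 ± 0.49 CPM in p107 tumors and 0.779 ± 0.289 CPM in p130 tumors. Erg, an ETS factor of mature endothelium, had a lowest, median and highest level of 7.24, 13.4 and 28.5 CPM in p107 tumors, against 6.29, 11.5 and 25.1 CPM in p130 tumors. Those ranges nearly coincide, and the log2 fold change of Erg was 0.07 ± 0.32 (SE, edgeR adjusted p = 0.957).

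Apelin and its receptor lay on opposite sides. Apln, the secreted ligand, had a lowest, median and highest level of 9.55, 15.8 and 27.4 CPM in p107 tumors, against 22.1, 24.9 and 34.4 CPM in p130 tumors. All but 1 of the p107 tumors lay below every p130 tumor. The mean was 17.4 ± 5.53 CPM in p107 tumors, against 26.3 ± 4.42 CPM in p130 tumors, and the log2 fold change was -0.59 ± 0.18 (SE, edgeR adjusted p = 0.246). Apln lies on the X chromosome, and the 2 p130 tumors with Kdm5d above Xist had 24.3 and 25.3 CPM, inside the range of the other 6 p130 tumors. In the 10 tumors with Kdm5d above Xist its log2 fold change was -0.51 (edgeR adjusted p = 0.872). Aplnr, the receptor of apelin, had a lowest, median and highest level of 1.08, 1.75 and 2.87 CPM in p107 tumors, against 0.0556, 0.628 and 2.35 CPM in p130 tumors. Its log2 fold change was 1.02 ± 0.48 (SE, edgeR adjusted p = 0.417), and was 0.68 without mouse sgp130_6697, of which tumor sgp130_6697T1 had an estimated count of 1.

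Of the other 2 receptor genes, Ramp2, the partner that makes the calcitonin receptor-like receptor bind adrenomedullin, averaged 9.90 ± 3.90 CPM in p107 tumors and 7.11 ± 1.59 CPM in p130 tumors. S1pr1, the receptor for sphingosine 1-phosphate, averaged 41.6 ± 25.1 CPM in p107 tumors and 31.6 ± 12.8 CPM in p130 tumors. In the p107 group S1pr1 was highest in sgp107_6629T2 with 83.5 CPM and sgp107_6631T2 with 76.0 CPM, and lowest in sgp107_6627T2 with 16.6 CPM.

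The other secreted proteins gave fold changes close to 0. Vwf, which captures platelets at wounds, had a lowest, median and highest level of 75.3, 435 and 987 CPM in p107 tumors, against 270, 453 and 617 CPM in p130 tumors. Both ends of the range were p107 tumors, sgp107_6627T1 at the low end and sgp107_6630T3 at the high end, and the log2 fold change was -0.10 ± 0.36 (SE, edgeR adjusted p = 0.938). Egfl7, a secreted vessel protein, averaged 10.2 ± 5.40 CPM in p107 tumors and 8.99 ± 4.76 CPM in p130 tumors, with values over 20 CPM in sgp107_6627T1 and sgp130_6637T1. Its log2 fold change was 0.18 ± 0.31 (SE, edgeR adjusted p = 0.852) and -0.08 without sgp107_6627T1. Esm1, a proteoglycan of sprouting tip cells, averaged 8.75 ± 3.37 CPM in p107 tumors and 9.59 ± 4.56 CPM in p130 tumors. Neither Egfl7 nor Esm1 separated the groups.

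Nos3, the endothelial nitric oxide synthase, averaged 3.05 ± 0.83 CPM in p107 tumors and 3.11 ± 1.09 CPM in p130 tumors. Rasip1, an effector of RAS-related GTPases needed for vessel lumens, averaged 13.1 ± 2.70 CPM in p107 tumors and 15.4 ± 2.62 CPM in p130 tumors (log2 fold change -0.23, SE 0.15, edgeR adjusted p = 0.584). Lyve1, a hyaluronan receptor of lymphatic endothelium, averaged 25.5 ± 9.35 CPM in p107 tumors and 28.1 ± 5.49 CPM in p130 tumors. For these 3 genes the groups overlapped over most of their range.

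**Figure D2:**
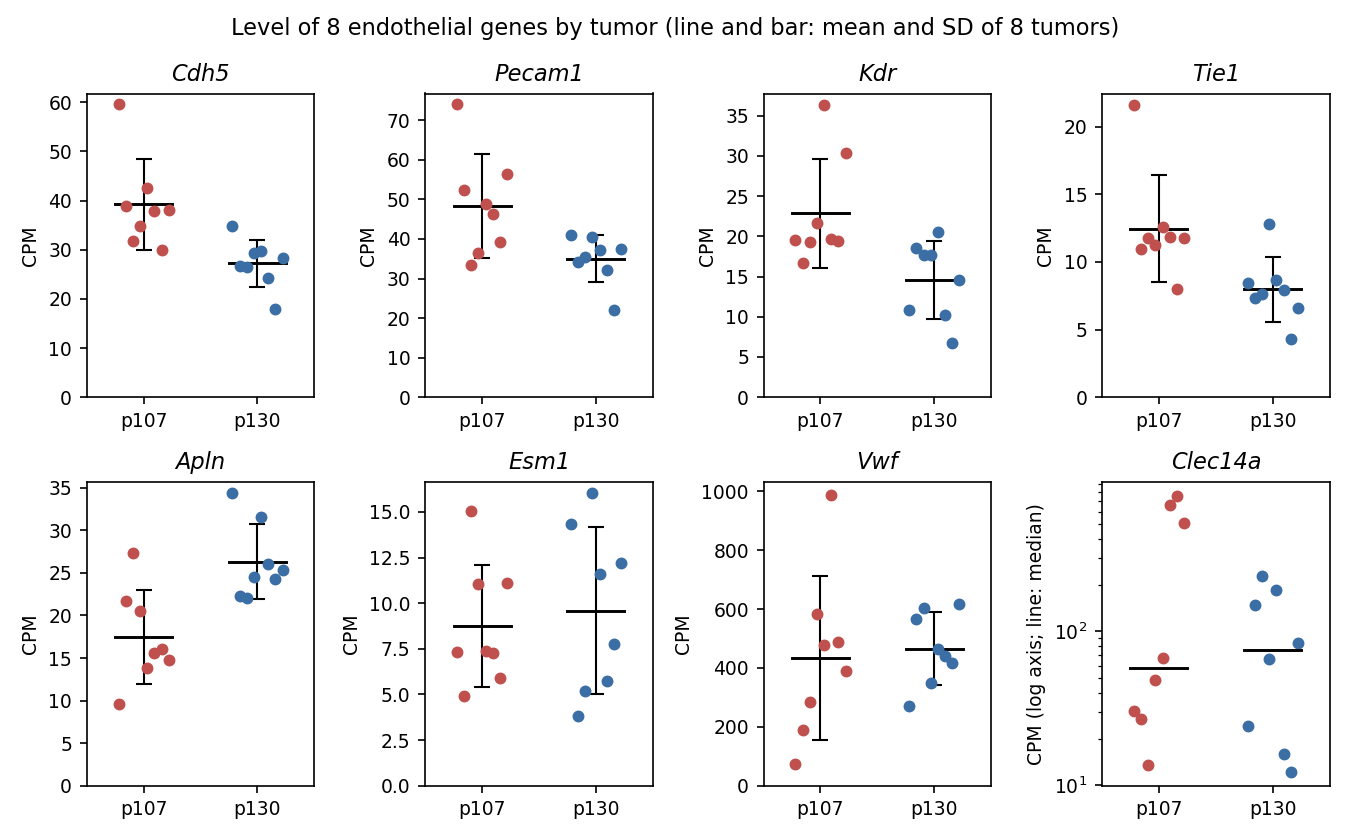
Level of 8 endothelial genes in CPM, 1 point per tumor, with p107 tumors left of p130 tumors. Lines and bars are the mean and SD of 8 tumors, except for Clec14a, drawn on a log axis with the median. In Apln all but 1 of the p107 points lie below every p130 point, and 3 p107 tumors of Clec14a stand at 502 CPM or more.

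Whether the 33 genes varied together was asked over all 16 tumors. The median Pearson r of log2(CPM + 1) was 0.30 over the 528 pairs, with 72.0% of pairs above 0, beside a median of -0.002 and 49.8% over all pairs of tested genes. These are descriptions over 16 tumors of 7 mice, and tumors of a mouse share the animal. After subtracting each group's mean the median r was 0.26, after subtracting each mouse's mean it was 0.40, and over the means of the 7 mice it was 0.35. The shared variation was thus present inside the groups and inside the mice. The 33 genes varied over tumors about as much as other genes, with a median SD of 0.44 on the log2(CPM + 1) scale, beside 0.39 over all tested genes. Among them the SD on this scale was highest for Clec14a (1.95) and lowest for Sox7 (0.26). Adding 1 CPM lowers the SD of genes at low levels, such as Sox7. By highest over lowest value, Sox7 varied 2.99-fold and Rasip1 only 1.93-fold.

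**Figure D3:**
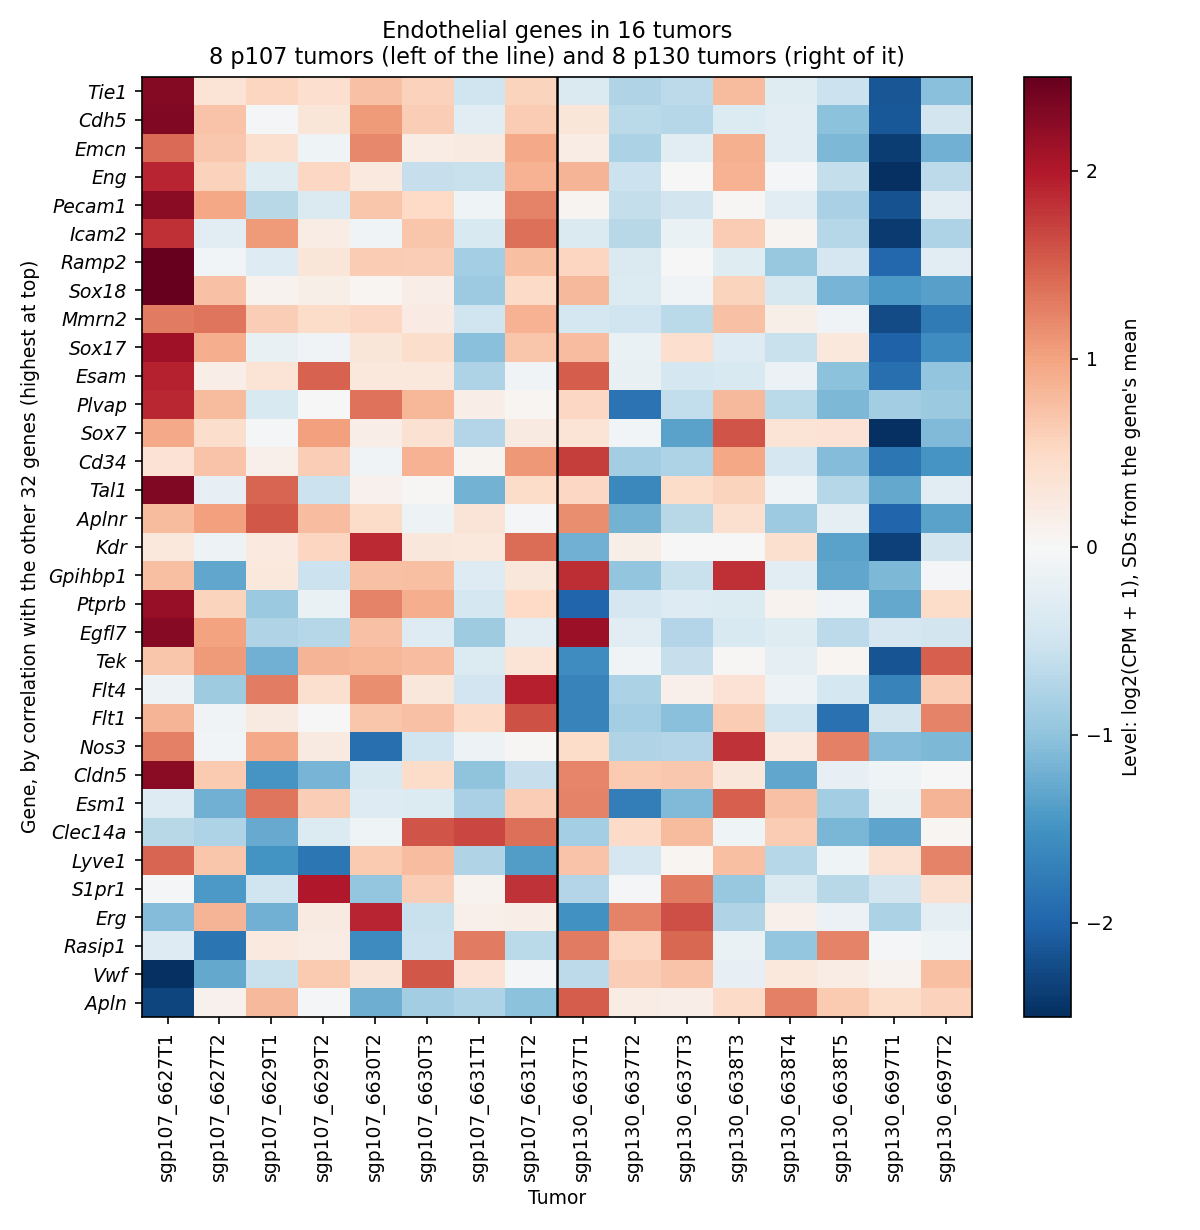
Level of the 33 genes in each tumor, as log2(CPM + 1) in SDs from the gene's mean, with 8 p107 tumors left of the line and 8 p130 tumors right of it. Genes are sorted by their correlation with the other 32, highest at the top. The column of sgp107_6627T1 is dark red for the upper genes and that of sgp130_6697T1 dark blue, while Vwf and Apln at the bottom do the reverse in sgp107_6627T1.

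Each gene was then set against the mean of the other 32. At r of 0.7 or more stood 15 genes, and all 15 kept r of 0.5 or more after subtracting each mouse's mean. They were Tie1 (r = 0.93), Cdh5 (0.92), Emcn (0.91), Eng (0.91), Pecam1 (0.90), Icam2 (0.89), Ramp2 (0.88), Sox18 (0.85), Mmrn2 (0.80), Sox17 (0.78), Esam (0.77), Plvap (0.75), Sox7 (0.74), Cd34 (0.73) and Tal1 (0.72). This core thus joined receptors, junction proteins, surface mucins and the SoxF factors. Without the 2 most extreme tumors, sgp107_6627T1 and sgp130_6697T1, r was 0.84 for Tie1, 0.81 for Cdh5, 0.83 for Emcn and 0.73 for Pecam1. It then fell under 0.7 for Icam2 (0.67), Mmrn2 (0.63), Esam (0.51), Sox17 (0.51), Tal1 (0.51) and Sox7 (0.48). The membership of the core thus rested in part on these 2 tumors.

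Another 10 genes stood between r of 0.2 and 0.7, and included all 3 VEGF receptors. They were Aplnr (r = 0.65), Kdr (0.63), Gpihbp1 (0.59), Ptprb (0.55), Egfl7 (0.48), Tek (0.47), Flt4 (0.43), Flt1 (0.41), Nos3 (0.31) and Cldn5 (0.28). Some of these rested on the extreme tumors. Without them r was 0.05 for Tek, 0.16 for Ptprb, 0.02 for Cldn5 and -0.04 for Nos3, whereas Flt1 kept 0.40. For Flt1, r was 0.72 after subtracting each mouse's mean but 0.13 after subtracting each genotype's mean.

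The remaining 8 genes stood under r of 0.2, with 4 below 0. Above 0 were Esm1 (r = 0.18), Clec14a (0.14), Lyve1 (0.08) and S1pr1 (0.08), and below 0 were Erg (-0.13), Rasip1 (-0.36), Vwf (-0.48) and Apln (-0.58). After subtracting each mouse's mean, Esm1 reached 0.77 and Lyve1 0.58, so these 2 followed the others inside a mouse but not over all tumors. Clec14a (0.11) and S1pr1 (0.30) stayed low there, and Erg (-0.42), Rasip1 (-0.14), Vwf (-0.41) and Apln (-0.33) stayed below 0. Without the 2 most extreme tumors, r with the mean of the other genes was -0.18 for Erg, -0.575 for Rasip1, -0.27 for Vwf and -0.45 for Apln. By Pearson r, Vwf ran most strongly against Egfl7 (r = -0.73, Spearman rho = -0.49) and Sox18 (r = -0.72, rho = -0.55). The lowest value of any pair was that of Ptprb and Apln (r = -0.78, Spearman rho = -0.63).

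**Figure D4:**
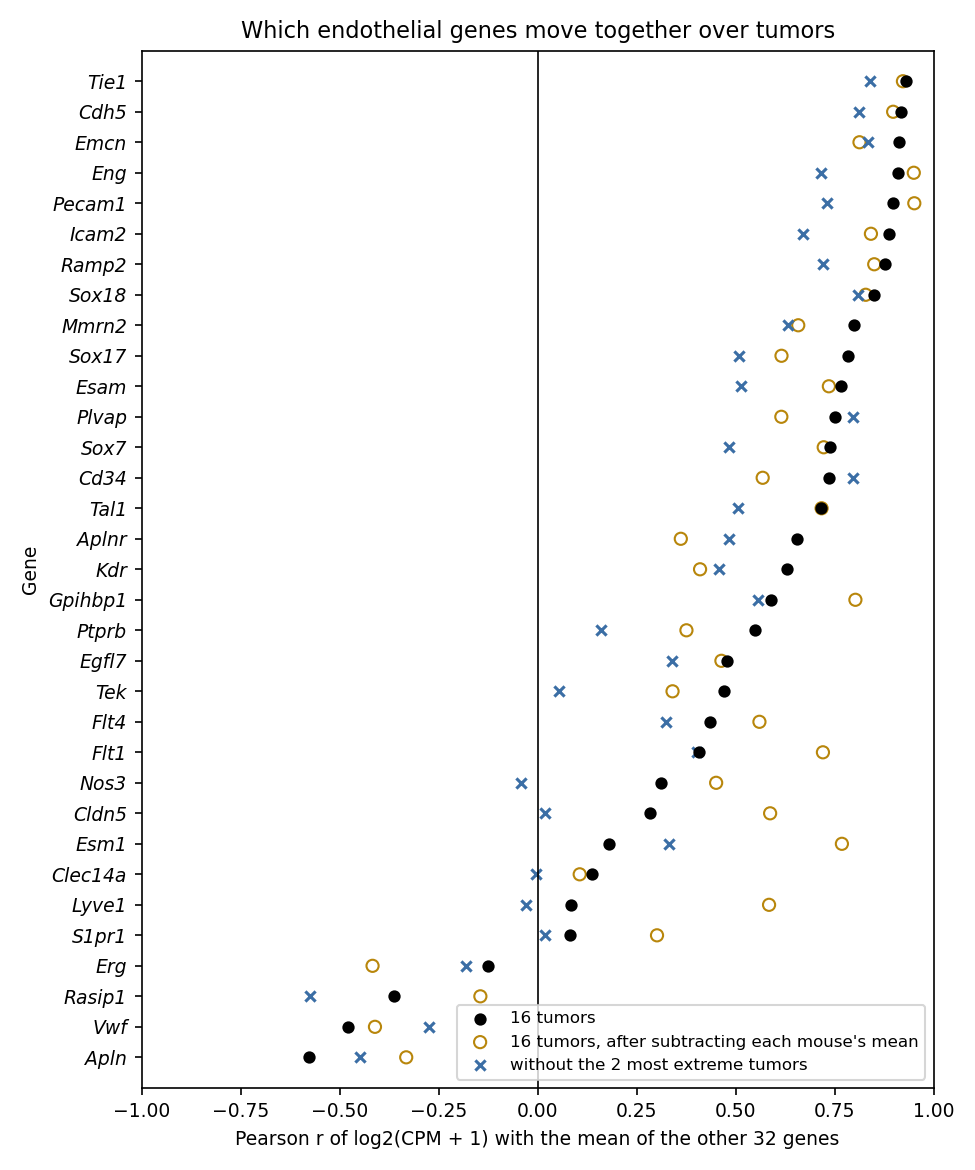
Pearson r of each gene with the mean of the other 32 over 16 tumors (filled points), after subtracting each mouse's mean (open points) and without the 2 most extreme tumors (crosses). Tie1 is highest at 0.93 and Apln lowest at -0.58, and the open points of Esm1 and Lyve1 lie far right of their filled points.

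The mean of the 33 genes, in SDs from each gene's mean, placed the tumors from 1.01 in sgp107_6627T1 to -1.34 in sgp130_6697T1. In sgp107_6627T1, 16 of the 33 genes had their highest value of all tumors, and in sgp130_6697T1, 17 had their lowest. The other 7 p107 tumors lay between -0.26 and 0.49, and the other 7 p130 tumors between -0.47 and 0.37, so the groups overlapped over most of the range. By mouse the means were 0.58, 0.09, 0.34 and 0.11 in p107 mice sgp107_6627, sgp107_6629, sgp107_6630 and sgp107_6631, against -0.11, -0.09 and -0.82 in p130 mice sgp130_6637, sgp130_6638 and sgp130_6697. All 4 p107 mice thus lay above all 3 p130 mice, although the 2 tumors of sgp130_6697 lay at -1.34 and -0.31.

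Both extreme tumors also stood out in other genes, and the part of these in the result was not tested. In sgp107_6627T1, Ager, a gene of alveolar type 1 cells, was at its highest with 118 CPM. In sgp130_6697T1, Ager at 32.2 CPM and Sftpc, the surfactant gene of alveolar type 2 cells, at 33.4 CPM were at their lowest, and Chga at 1748 CPM was at its highest.

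A list of 31 further pan-endothelial genes had a mean that followed the mean of the 33 with r = 0.89 (Spearman rho = 0.88, 0.92 within mice, 0.86 without the 2 most extreme tumors). Single genes of the list differed, and r was below 0 for Arhgef15 (-0.43), Palmd (-0.37), Fam38b (-0.30) and Podxl (-0.21). Of these 31, 25 had the higher fitted level in p107 tumors, with a median log2 fold change of 0.31, and none passed. The smallest p in this list belonged to Dysf, Fgd5 and She, with log2 fold changes of 0.73 ± 0.23, 0.89 ± 0.29 and -1.81 ± 0.59 (SE, edgeR adjusted p = 0.2499, 0.264 and 0.267). She, a signalling adaptor, had its lower fitted level in p107 tumors, at 7.26 ± 1.95 CPM against 25.4 ± 32.9 CPM in p130 tumors.

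**Figure D5:**
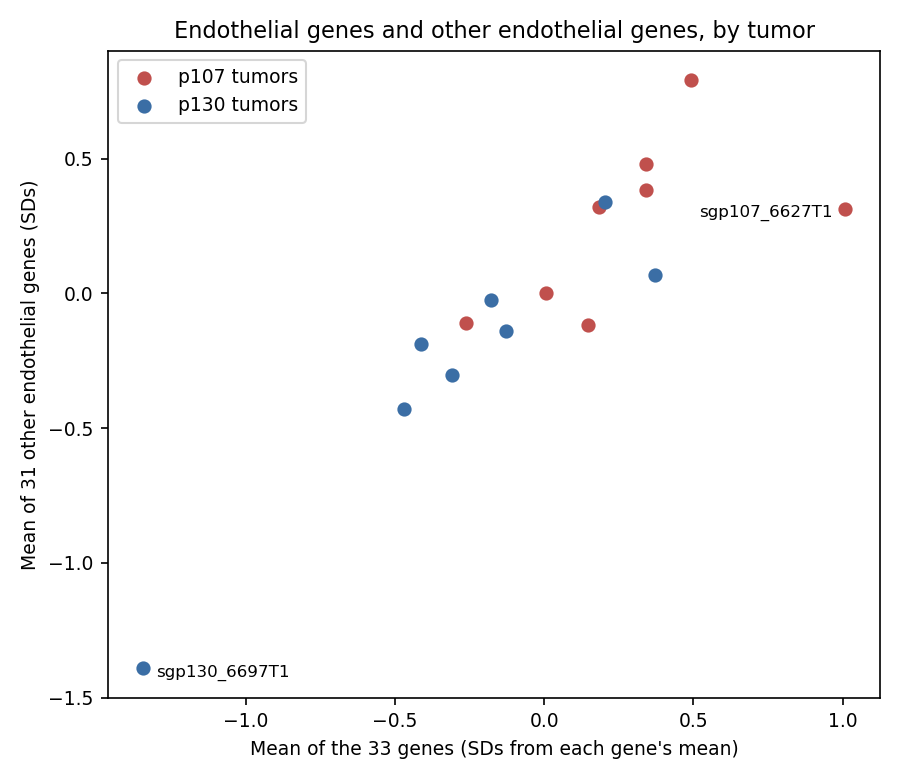
Mean of 31 other endothelial genes against the mean of the 33 genes, both in SDs from each gene's mean, 1 point per tumor (8 p107, 8 p130). The points follow a rising line (r = 0.89), with sgp107_6627T1 farthest right at 1.01 and sgp130_6697T1 farthest left at -1.34.

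Among 11235 tested genes outside the set with a mean of at least 5 CPM, the 12 most like the mean of the 33 were sought by Pearson r over the 16 tumors. They were Klf2 (r = 0.90), a factor induced by blood flow, Cav1 (0.88), the coat protein of caveolae, Cd93 (0.87), a surface receptor and relative of Clec14a, Lamb1 (0.85), a laminin chain of basement membranes, and Acvrl1 (0.84), the endothelial receptor that pairs with Eng. Chst15 (0.83), Eltd1 (0.82), Cd302 (0.82), Npr1 (0.82), Sparcl1 (0.81), Tmem43 (0.81) and Ehbp1l1 (0.81) completed them. Their log2 fold changes lay between 0.27 (Sparcl1) and 0.83 (Chst15), with edgeR adjusted p-values from 0.284 to 0.629, and choosing them by likeness to a mean that was higher in p107 tumors largely sets that direction. Klf2 averaged 9.84 ± 1.87 CPM in p107 tumors and 6.93 ± 2.22 CPM in p130 tumors.

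The vascular receptors outside the set leaned the same way. Of 22, 21 had the higher fitted level in p107 tumors, with a median log2 fold change of 0.41, and none passed. The smallest p belonged to Nrp2, a coreceptor for VEGF-C, Cxcr4, the chemokine receptor for CXCL12, and Plxnd1, a semaphorin receptor. Nrp2 averaged 28.2 ± 20.04 CPM in p107 tumors and 13.1 ± 3.44 CPM in p130 tumors (log2 fold change 1.10, SE 0.30, edgeR adjusted p = 0.209). Cxcr4 averaged 65.1 ± 18.9 CPM in p107 tumors and 38.2 ± 11.6 CPM in p130 tumors (log2 fold change 0.77, SE 0.22, edgeR adjusted p = 0.213). Plxnd1 averaged 36.4 ± 13.5 CPM in p107 tumors and 22.6 ± 4.57 CPM in p130 tumors (log2 fold change 0.69, SE 0.21, edgeR adjusted p = 0.242). The mean of this list followed that of the 33 with r = 0.87.

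The ligands did not lean that way. Of 17 tested ligands of the VEGF, angiopoietin and related families, 10 had the higher fitted level in p107 tumors, with a median log2 fold change of 0.04, and r of the list mean was 0.33. Vegfa, the main angiogenic ligand, averaged 103 ± 36.8 CPM in p107 tumors and 96.4 ± 58.3 CPM in p130 tumors. Pgf, placental growth factor and a ligand of Flt1, averaged 45.1 ± 19.5 CPM in p107 tumors and 21.9 ± 10.04 CPM in p130 tumors (log2 fold change 1.04, SE 0.31, edgeR adjusted p = 0.233). Angpt2, a ligand of Tek made by sprouting endothelium, averaged 3.996 ± 1.81 CPM in p107 tumors and 6.76 ± 5.30 CPM in p130 tumors. Angpt4, Angptl1, Gdf2 and Bmp10 stayed under 1 CPM in all tumors.

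Genes that mark vessel types were counted next. Some genes are shared between these lists and those above, among them Dll4, Cxcr4, Unc5b, Pgf and Sema3g. The counts of the lists are thus not independent of each other. Of 13 tip cell genes 9 had the higher fitted level in p107 tumors, with the basement membrane collagens Col4a1 (log2 fold change 0.58 ± 0.15, SE, edgeR adjusted p = 0.193) and Col4a2 (0.49 ± 0.13, edgeR adjusted p = 0.204) in front. Of 9 arterial genes 7 were on that side, led by Sema3g (0.65 ± 0.22, edgeR adjusted p = 0.269). Of 6 venous and activated endothelial genes all 6 were, led by the amino acid transporter Slc38a5. Slc38a5 averaged 20.1 ± 12.3 CPM in p107 tumors and 6.96 ± 2.75 CPM in p130 tumors (log2 fold change 1.53, SE 0.36, edgeR adjusted p = 0.176). Of 11 lung capillary genes 9 were on that side, and r of that list's mean with the 33 was 0.77. Of 21 other endothelial transcription factors 16 were, and r of that list's mean was 0.21. Of 8 lymphatic genes 4 were, with r of 0.003, and 4 of 4 liver sinusoidal genes were, with r of 0.36. Without the 2 most extreme tumors these 3 values of r were 0.49 for the transcription factors, 0.36 for the lymphatic genes and 0.71 for the liver sinusoidal genes.

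Markers of other cells were read the same way, and their part in the results was not tested. Alveolar type 1 genes summed to 227 to 460 CPM in p107 tumors and 190 to 333 CPM in p130 tumors, with 8 of 8 on the higher side in p107 tumors and r of 0.61 with the mean of the 33, although this list shares Cav1 with endothelium. Pericyte and smooth muscle genes gave 8 of 14 and r of 0.51, fibroblast genes 8 of 11 and 0.26, macrophage genes 8 of 11 and 0.30, and mesothelial genes 7 of 7 and 0.45. Alveolar type 2 genes gave 7 of 8 and r of 0.29, airway genes 5 of 5 and 0.21, platelet genes 4 of 5 and 0.14, progenitor and mast cell genes 2 of 2 and 0.56, and red blood cell genes 4 of 4 and 0.29. The 2 tested progenitor and mast cell genes were Kit (r = -0.09) and Gata2 (0.78). Gata2 was also counted among the other endothelial transcription factors, so the value of 0.56 is not particular to progenitor or mast cells. Neuroendocrine genes gave 8 of 12 and r of 0.0005. Without the 2 most extreme tumors r was 0.36 for alveolar type 1 genes and 0.22 for progenitor and mast cell genes, whose Spearman rho over all 16 was also 0.22. Within mice r was 0.01 for mesothelial genes. No gene of these lists passed the edgeR test.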

How the data were processed

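RNA from 8 p107 and 8 p130 tumors was sequenced. The table used holds estimated counts of each gene, as the authors deposited them, and the submitters' processing notes name RSEM 1.2.12, Bowtie 1.0.1 and mm9. Neither the annotation nor the strandedness is given in the sources used here, so reads of overlapping or antisense genes cannot be separated, and RSEM splits the reads of near-identical copies between them. Between 42.1% and 54.6% of a tumor's values were not whole. A second table, a signal normalized by the authors, served as an alternative.

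Estimated counts were rounded. edgeR 4.0.16 in R 4.3.3 fitted all 16 tumors (TMM, filterByExpr, robust quasi-likelihood F test, Benjamini-Hochberg adjustment over all tested genes, threshold 0.05), and the fit was tested on simulated data. Fold changes are p107 over p130, with 95% intervals. Levels are CPM. Correlations use log2(CPM + 1), and the core was set at r of 0.7. Transcript lengths are those of the longest protein-coding transcript of GENCODE M21, which may differ from the annotation behind the counts. Alternatives were RLE and upper quartile factors, no filter, DESeq2 1.42.0, counts summed per mouse, voom (limma 3.58.1) with mouse as random block, the normalized table, tumors with Kdm5d above Xist, and leaving out tumor sgp107_6627T1 or each mouse. Per the labels, tumors of a genotype are biological replicates, but tumors of a mouse are not independent.

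All 33 genes are named. Outside them, the 12 most alike by r at 5 CPM or more are named, and up to 3 genes of smallest p per list, with a few chosen after their values were seen. The 33 genes and the lists were chosen with earlier results of these data known. A few genes are not reported here.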

Additional observations from a re-analysis of the deposited data

Results flagged for a closer look

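Dixon's test was applied to 68 groups of 8 values, each of the 33 genes and the mean of all 33 in each genotype. Chance gives about 1 in 20 groups, or 3.4, if values are normally distributed. The groups share the same tumors and the gene values are untransformed CPM, so that rate is only a rough guide. In 10 groups, 1 tumor stood far from the rest. Most were single high values in sgp107_6627T1. There Tie1 had 21.6 CPM, against 8.04 to 12.6 CPM in the other 7 p107 tumors. Cdh5 had 59.7 CPM there, against 29.9 to 42.6 CPM, and Cldn5 had 8.91 CPM, against 2.44 to 5.29 CPM. Sox18 had 8.21 CPM there, against 2.19 to 4.196 CPM, Ramp2 had 18.9 CPM, against 6.11 to 10.3 CPM, and Egfl7 had 21.9 CPM, against 6.11 to 13.3 CPM. These 6 genes share the 1 library, so they are not 6 separate findings.

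In p130 tumors the tumors that stood apart differed by gene. Pecam1 had 22.1 CPM in sgp130_6697T1, against 32.2 to 41.1 CPM in the other 7, and Tek had 17.4 CPM in sgp130_6697T2, against 5.06 to 10.9 CPM. In sgp130_6637T1, Esam had 17.1 CPM, against 5.34 to 9.87 CPM, and Egfl7 had 20.7 CPM, against 6.49 to 7.91 CPM.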

How the results depend on the processing

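With 16 tumors from 7 mice, no endothelial gene passed in any alternative except Cdh5 in DESeq2, where 1 of the 33 was called. On the normalized table only 32 of the 33 were tested, and all 33 in the other alternatives. No paired analysis was possible because each mouse carried 1 genotype and the replicate numbers only follow accession order. Genes called over the whole table numbered 4, against 335 by DESeq2, 1 on counts summed per mouse, and 0 each with the mouse as a random block, on the normalized table and among tumors with Kdm5d above Xist. Leaving out sgp107_6627T1 or 1 mouse gave 0 to 10 calls, the 10 without mouse sgp130_6697. The number of the 33 higher in p107 tumors stayed within 24 to 28. Their median log2 fold change was 0.29 to 0.46 when sgp107_6627T1 or 1 mouse was left out, and 0.70 among tumors with Kdm5d above Xist, of which only 2 were p130. The median r between pairs was 0.23 to 0.40 under all alternatives run.

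The sign of the log2 fold change held for 25 genes under all alternatives run, and turned at least once for 8 with small changes, where the cause was not tested. Gpihbp1 had 0.0017 with RLE factors, 0.012 without the filter, 0.0048 in DESeq2, 0.018 per mouse, 0.081 with the random block, 0.057 on the normalized table and 0.32 among tumors with Kdm5d above Xist. Nos3 had 0.035 per mouse, 0.011 with the random block and 0.54 among tumors with Kdm5d above Xist, and Cldn5 had 0.057 there. With tumor sgp107_6627T1 or a mouse left out, log2 fold changes spanned -0.10 to 0.063 for Gpihbp1, -0.18 to 0.29 for Nos3, -0.44 to 0.15 for Cldn5, -0.11 to 0.38 for Erg, -0.22 to 0.48 for Egfl7, -0.47 to 0.20 for Vwf, -0.39 to 0.0022 for Esm1 and -0.35 to 0.034 for Lyve1.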

Other observations

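The genes that went their own way were each compared with all tested genes at 5 CPM or more. These queries were chosen after the values were seen, and r is over 16 tumors, some from the same mouse. Vwf was most like Sowahb (r = 0.93), Vsig10 (0.92) and Ocln (0.91), a tight junction protein of epithelium and endothelium. Among the genes most like Clec14a were Rfk (r = 0.84) and Prss23 (0.82), and S1pr1 was most like Capn5 (0.86), Tspan8 (0.85) and Ppp6r1 (0.81). Apln was most like Kbtbd8 (r = 0.86), Me2 (0.84) and Thg1l (0.83), Erg most like Plekhf1 (0.82), Lyve1 most like Mapk8ip3 (0.81) and Rasip1 most like Clptm1l (0.81). Esm1 was most like Igfbp3 (r = 0.85, 0.97 within mice), a binding protein of insulin-like growth factors made by many cells.

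Hypoxia and glycolysis genes, which respond to poor oxygen supply, mostly had the lower fitted level in p107 tumors. Of 13, only Vegfa had the higher fitted level in p107 tumors, and the median log2 fold change was -0.24. None passed the edgeR test, and the smallest p belonged to Car9, a carbonic anhydrase, at 0.644 ± 0.400 CPM (mean ± SD of 8 tumors) in p107 tumors, against 1.31 ± 1.22 CPM in p130 tumors, with an edgeR adjusted p of 0.446. Over the 16 tumors the mean of this list had r of -0.05 with the mean of the 33 endothelial genes, which was 0.25 without the 2 most extreme tumors and 0.49 within mice.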
